A study of Mus musculus with 23 samples.

Results

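Myelin and oligodendrocyte lineage genes were followed in the hippocampus of 23 mice, of which 9 were Ctrl, 7 EtOH and 7 EtOH-UA. The list was fixed by gene symbol and holds 33 of the 19733 genes of the table, and all 33 were found. All mice were wild-type (WT) male C57BL/6J mice, 6 weeks old when assigned to their groups and kept on their diets for 16 weeks, followed by 1 week of behavioral tests. Ctrl mice received the AIN93M control liquid diet and EtOH mice the AIN93M ethanol liquid diet, both with a daily gavage of CMC-Na (0.05%), the vehicle. EtOH-UA mice received the ethanol liquid diet and a daily gavage of urolithin A (UA), a gut microbial metabolite of ellagitannins, at 200 mg/kg/day in the same vehicle. The comparison of EtOH with Ctrl mice shows the response to the ethanol diet, and that of EtOH-UA with EtOH mice the response to UA on top of it. Each library is 1 mouse, and the tissue is bulk hippocampus with all cell types of the dissected piece. The cages and dissection batches of the mice are not given in the sources used here.

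Oligodendrocytes wrap axons of the central nervous system in myelin, a stack of membrane that speeds conduction and feeds the axon. They arise from progenitors that carry the receptor Pdgfra and the proteoglycan Cspg4, pass through a short newly formed stage, and then make sheath proteins and sheath lipids in large amounts. Transcription factors direct these steps: Olig1, Olig2 and Sox10 are present along most of the lineage, and Myrf is needed for the switch to myelin genes. In the hippocampus myelin lies mainly in the alveus, the fimbria and the layers that carry long fibers.

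All 33 genes were detected in all 23 mice, and the lowest value of any of them was 0.79 FPKM (fragments per kilobase of transcript and library size, a level that allows genes of different length to be compared). On average over the mice, 22 of them were above 10 FPKM and 11 between 1 and 10 FPKM. Together they made up between 0.374% and 0.805% of the summed FPKM of a mouse, and Mbp alone made up between 0.181% and 0.419%. In bulk tissue, fewer cells of a type and less RNA per cell cannot be told apart, and this holds for each value that follows.

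Among the 14 sheath genes, Mbp, which holds the cytoplasmic faces of the myelin membrane together, was the most abundant, with a mean of 938 FPKM. It covered 605 to 1308 FPKM in the Ctrl group (median 769), 784 to 1184 FPKM in the EtOH group (median 1008) and 664 to 1411 FPKM in the EtOH-UA group (median 837). The 3 groups overlapped over most of their range, and the lowest and the highest mouse differed 2.33-fold. The next sheath genes by level were Plekhb1, a membrane protein with a pleckstrin homology domain, at a mean of 149 FPKM, Mobp, a protein of compact central myelin, at 97.7 FPKM, Cnp, an enzyme of the cytoplasmic channels of the sheath, at 91.3 FPKM, and Mal, a proteolipid, at 75.8 FPKM. Mobp covered 59.8 to 143 FPKM in the Ctrl group (median 82.7), 76.5 to 119 FPKM in the EtOH group (median 106) and 73.6 to 147 FPKM in the EtOH-UA group (median 94.2).

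Mag, the adhesion molecule of the inner sheath that faces the axon, averaged 45.7 FPKM. It covered 28.3 to 61.5 FPKM in the Ctrl group (median 36.1), 37.5 to 61.8 FPKM in the EtOH group (median 50.1) and 35.4 to 65.3 FPKM in the EtOH-UA group (median 39.7). Cldn11, which forms the tight junctions of myelin, had a mean of 44.7 FPKM, Tspan2, a tetraspanin, of 25.2 FPKM, and Mog, a protein of the outer surface of the sheath, of 24.7 FPKM. Ermn, a cytoskeletal protein of the oligodendrocyte, had a mean of 17.7 FPKM, and Tmem88b, a transmembrane protein, one of 15.97 FPKM. The least abundant sheath gene was Opalin, a membrane protein of the sheath, with 6.02 to 13.0 FPKM in the Ctrl group (median 8.83), 7.02 to 11.7 FPKM in the EtOH group (median 9.19) and 6.17 to 12.9 FPKM in the EtOH-UA group (median 8.18).

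Hapln2, a hyaluronan link protein of the nodes of Ranvier, covered 6.27 to 14.2 FPKM in the Ctrl group (median 8.43), 8.85 to 14.1 FPKM in the EtOH group (median 10.9) and 7.90 to 15.4 FPKM in the EtOH-UA group (median 10.9). The highest mice of the 3 groups were alike, and the lower Ctrl mice lay below all EtOH mice. Ppp1r14a, a phosphatase inhibitor that smooth muscle also expresses, covered 5.47 to 15.4 FPKM in the Ctrl group (median 10.2), 5.80 to 15.9 FPKM in the EtOH group (median 10.5) and 9.21 to 13.8 FPKM in the EtOH-UA group (median 11.5). Its lowest values were in a Ctrl and an EtOH mouse.

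The enzymes of myelin lipids had lower levels than most sheath genes. Aspa, which splits N-acetylaspartate from neurons and so supplies acetate for lipids, had 6.71 to 16.3 FPKM in the Ctrl group (median 9.90), 8.41 to 13.5 FPKM in the EtOH group (median 10.5) and 7.24 to 15.3 FPKM in the EtOH-UA group (median 10.2). Ugt8a, which makes the galactosylceramide of myelin, had a mean of 10.1 FPKM. Fa2h, which hydroxylates the fatty acids of these lipids, was the least abundant, with 4.41 to 10.6 FPKM in the Ctrl group (median 6.59), 6.42 to 11.0 FPKM in the EtOH group (median 8.34) and 5.36 to 11.7 FPKM in the EtOH-UA group (median 6.06). All 3 enzymes overlapped between all groups.

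Of the gap junction, receptor and secreted proteins, Trf was the most abundant. It encodes transferrin, the iron carrier, which oligodendrocytes make and which the epithelium of the choroid plexus makes too. Trf covered 58.6 to 124 FPKM in the Ctrl group (median 71.2), 72.8 to 132 FPKM in the EtOH group (median 103) and 80.5 to 126 FPKM in the EtOH-UA group (median 100.2). All 7 EtOH and all 7 EtOH-UA mice lay above the Ctrl median, and all of them but the 1 highest EtOH mouse and the 2 highest EtOH-UA mice lay within the Ctrl range. Gpr37, an orphan receptor of the myelinating cell, had a mean of 20.6 FPKM, and the connexin Gjc3 one of 17.2 FPKM. Adamts4, a secreted protease of proteoglycans, had 4 to 8.41 FPKM in the Ctrl group (median 5.36), 5.15 to 7.73 FPKM in the EtOH group (median 6.01) and 3.92 to 8.26 FPKM in the EtOH-UA group (median 4.81). The lowest of these genes was the connexin Gjb1, with 2.50 to 5.63 FPKM in the Ctrl group (median 3.77), 3.02 to 5.82 FPKM in the EtOH group (median 4.58) and 3.43 to 6.30 FPKM in the EtOH-UA group (median 4.01).

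The transcription factors fell into a variable and a steadier set. Olig1 covered 24.2 to 35.1 FPKM in the Ctrl group (median 30.3), 25.03 to 35.1 FPKM in the EtOH group (median 29.0) and 25.2 to 34.9 FPKM in the EtOH-UA group (median 32.6). Olig2, its neighbor on chromosome 16, covered 8.43 to 11.0 FPKM in the Ctrl group (median 9.71), 7.91 to 12.2 FPKM in the EtOH group (median 9.71) and 8.20 to 11.6 FPKM in the EtOH-UA group (median 9.39). The highest mouse had 1.45 times the Olig1 and 1.55 times the Olig2 of the lowest. Myrf, with 6.13 to 12.8 FPKM in the Ctrl group (median 8.48), 8.69 to 11.9 FPKM in the EtOH group (median 10.4) and 6.10 to 12.6 FPKM in the EtOH-UA group (median 9.70), differed 2.09-fold. All 7 EtOH mice lay above the Ctrl median of Myrf. Sox10 had a mean of 11.0 FPKM and differed 1.70-fold between the lowest and the highest mouse, and the homeodomain factor Nkx6-2 had a mean of 3.92 FPKM and differed 2.48-fold. Nkx2-2, another homeodomain factor, was the least abundant gene of all 33, with 0.80 to 2.18 FPKM in the Ctrl group (median 1.54), 0.92 to 1.78 FPKM in the EtOH group (median 1.23) and 1.16 to 1.63 FPKM in the EtOH-UA group (median 1.34).

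Genes of progenitors and newly formed cells were also present. Pdgfra, the receptor through which progenitors respond to platelet-derived growth factor, covered 9.83 to 14.2 FPKM in the Ctrl group (median 11.4), 10.8 to 14.2 FPKM in the EtOH group (median 11.8) and 9.15 to 13.2 FPKM in the EtOH-UA group (median 10.8). Cspg4 covered 2.51 to 3.14 FPKM in the Ctrl group (median 2.78), 2.09 to 3.10 FPKM in the EtOH group (median 2.67) and 1.89 to 2.97 FPKM in the EtOH-UA group (median 2.72). Gpr17, a receptor of committed precursors, had a mean of 7.18 FPKM. Of all 33 genes, Gpr17, Olig1, Olig2 and Pdgfra had the smallest ratios between the highest and the lowest mouse. Bcas1, a protein of early myelinating cells, covered 35.4 to 74.0 FPKM in the Ctrl group (median 47.3), 42.4 to 74.8 FPKM in the EtOH group (median 63.7) and 41.2 to 84.5 FPKM in the EtOH-UA group (median 50.3). Enpp6, a choline phosphodiesterase of newly formed cells, covered 0.97 to 2.32 FPKM in the Ctrl group (median 1.64), 1.10 to 2.07 FPKM in the EtOH group (median 1.67) and 0.79 to 2.28 FPKM in the EtOH-UA group (median 1.23). Enpp6 thus had the largest ratio between the highest and the lowest mouse of the 33 genes, 2.94-fold.

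**Figure D1:**
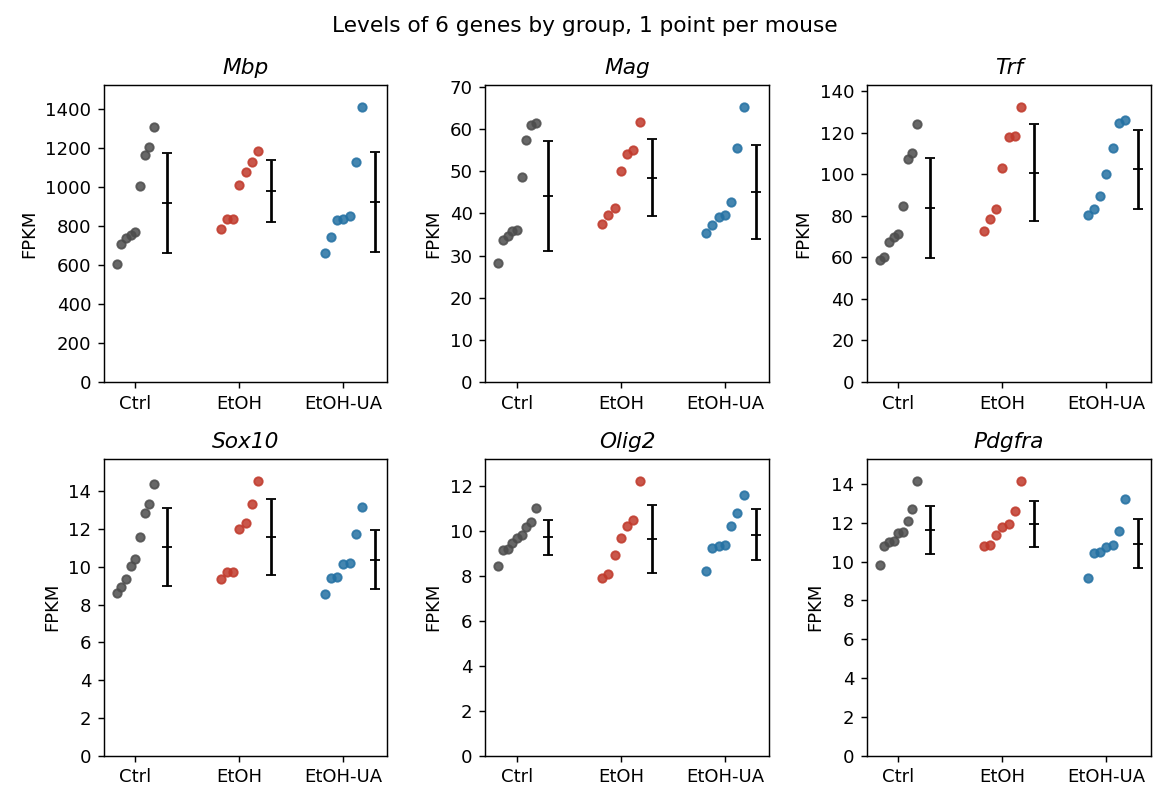
Levels in FPKM (y axis, from 0) of Mbp, Mag, Trf, Sox10, Olig2 and Pdgfra by group (x axis), with 1 point per mouse and, beside each group, the mean with its SD (9 Ctrl, 7 EtOH and 7 EtOH-UA mice). The groups overlap in each gene: Mbp covers 605 to 1308 FPKM in Ctrl, 784 to 1184 FPKM in EtOH and 664 to 1411 FPKM in EtOH-UA mice.

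The largest differences lay between mice of the same group. The SD between mice of a group, pooled over the 3 groups on the scale of log2(FPKM + 0.1), had a median of 0.35 over the 33 genes. Over the 12904 genes of at least 1 FPKM it had a median of 0.16, and 31 of the 33 genes were above that value. The exceptions were Pdgfra at 0.15 and Gpr17 at 0.16. Olig2 (0.17), Cspg4 (0.18) and Olig1 (0.18) were just above it, whereas Ppp1r14a (0.39), Enpp6 (0.39), Ugt8a (0.39), Fa2h (0.39) and Mobp (0.39) had the largest values. Where counting error could be worked out it was smaller. From the steps among the smallest values of 15 genes with 1 transcript, 1 FPKM corresponded to about 17.3 fragments per kilobase (quartiles 16.9 and 17.96), which puts Mag at about 1922 fragments per mouse and Enpp6 at about 133. Nkx2-2 rested on about 51.7 fragments per mouse, for which counting alone gives an SD of 0.20 against 0.32 observed.

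The mice that were high in 1 mature gene tended to be high in most of them. Here the mature genes are the 28 members left without Pdgfra, Cspg4, Gpr17, Enpp6 and Bcas1. The same EtOH-UA mouse was the highest of its group in 27 of the 28, the exception being Nkx2-2. A single Ctrl mouse was the lowest of its group in 19 of the 28, and another Ctrl mouse the highest in 17. In the EtOH group 1 mouse was the highest in 12 of the 28 genes and another the lowest in 11. For Mbp the Ctrl group held 5 mice between 605 and 769 FPKM and 4 between 1006 and 1308 FPKM. With group means removed, a single component held 81.5% of the sum of squares of the 28 genes over the 23 mice, and the component after it 7.75%.

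**Figure D2:**
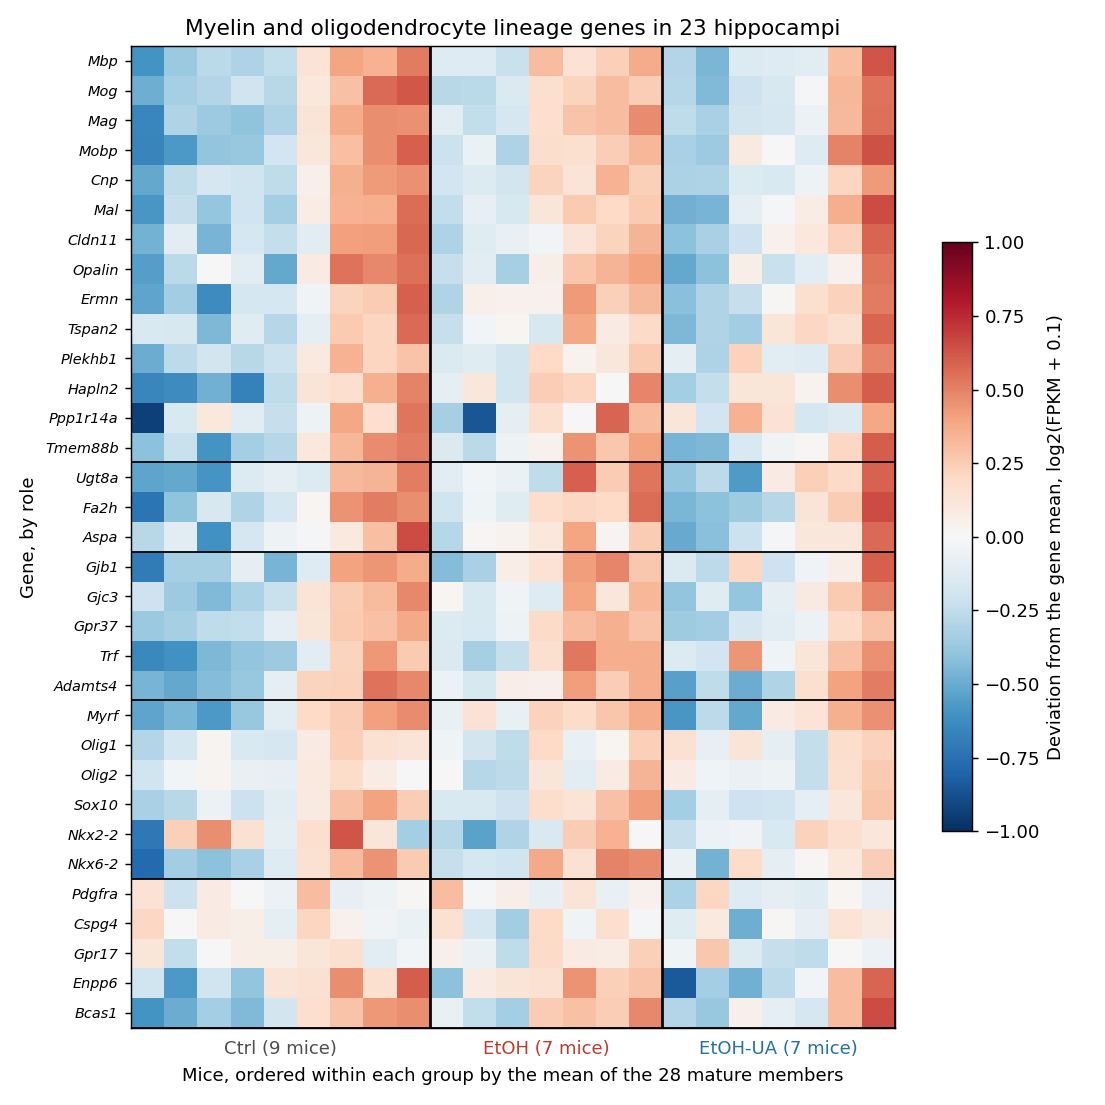
Heat map of the 33 genes (rows, by role: sheath, enzymes, junction, receptor and secreted proteins, transcription factors, and progenitor and newly formed genes) in 23 mice (columns, ordered within each group by the mean of the 28 mature genes). Color is the deviation of log2(FPKM + 0.1) from the mean of the gene over all mice, with red higher and blue lower. Most mature genes and the rows of Enpp6 and Bcas1 shift from blue to red together in each group. Nkx2-2 in Ctrl mice and Ppp1r14a and Olig1 in EtOH-UA mice follow less closely. The rows of Pdgfra, Cspg4 and Gpr17 do not follow this order.

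To describe this covariation gene by gene, the deviation of each gene from its group means was compared with the mean deviation of the other mature genes over the 23 mice. These values come from the same libraries, dissections and depths, so the correlations are given as a description with no p-value. Mag followed the other mature genes most closely (Pearson r = 0.98, Spearman rho = 0.92, and r = 0.98 without the 2 mice farthest from the median). Gpr37, Mog and Cnp (r = 0.98 each), Mbp and Mal (r = 0.97 each) and Tmem88b, Fa2h and Mobp (r = 0.96 each) came next. Within single groups the r of Mag was 0.99 for the Ctrl, 0.98 for the EtOH and 0.98 for the EtOH-UA group. Over the 378 pairs of mature genes the median r was 0.85, and 333 pairs had an r above 0.5.

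The transcription factors differed in how closely they followed. Sox10 (r = 0.93), Myrf (r = 0.89) and Nkx6-2 (r = 0.88) moved with the sheath genes. Olig1 (r = 0.68) and Olig2 (r = 0.60) followed less closely and also varied less, and Nkx2-2 was the loosest of the 28 (r = 0.41, rho = 0.41). For Nkx2-2 the value differed between groups, with r = 0.21 for the Ctrl, 0.84 for the EtOH and 0.68 for the EtOH-UA group, and it rose to 0.62 without the 2 farthest mice. Olig1 (chr16:91269769-91271939) and Olig2 (chr16:91225550-91228677 in GRCm38.p6) correlated with each other at r = 0.88 (rho = 0.88, and 0.85 without 2 mice), more closely than either did with Mag (0.76 for Olig1 and 0.69 for Olig2). Outside the factors, Ppp1r14a (r = 0.67) and Tspan2 (r = 0.82) were the sheath genes that followed least, and in EtOH-UA mice the r of Ppp1r14a was 0.29.

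Progenitor genes showed little of this covariation. The r with the mature genes was -0.10 for Pdgfra, 0.11 for Cspg4 and 0.091 for Gpr17, and over the 84 pairs of a mature gene with one of these the median r was 0.049 and none was above 0.5. Among themselves Pdgfra and Cspg4 had r = 0.37, Pdgfra and Gpr17 r = 0.41 and Cspg4 and Gpr17 r = 0.55, and without the 2 farthest mice these were 0.24, 0.17 and 0.47. Gpr17 had an r of 0.71 with the mature genes within the 7 EtOH mice, against -0.013 in Ctrl and -0.23 in EtOH-UA mice. Bcas1 and Enpp6, listed here as genes of newly formed cells, behaved otherwise. Bcas1 (r = 0.96) and Enpp6 (r = 0.84) followed the mature genes. Gpr17 and Enpp6 correlated at r = 0.16, so the statement covers Bcas1 and Enpp6 and not a whole stage. The Ctrl mouse with the lowest Mbp, 605 FPKM, had 12.7 FPKM of Pdgfra, above the Ctrl median.

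**Figure D3:**
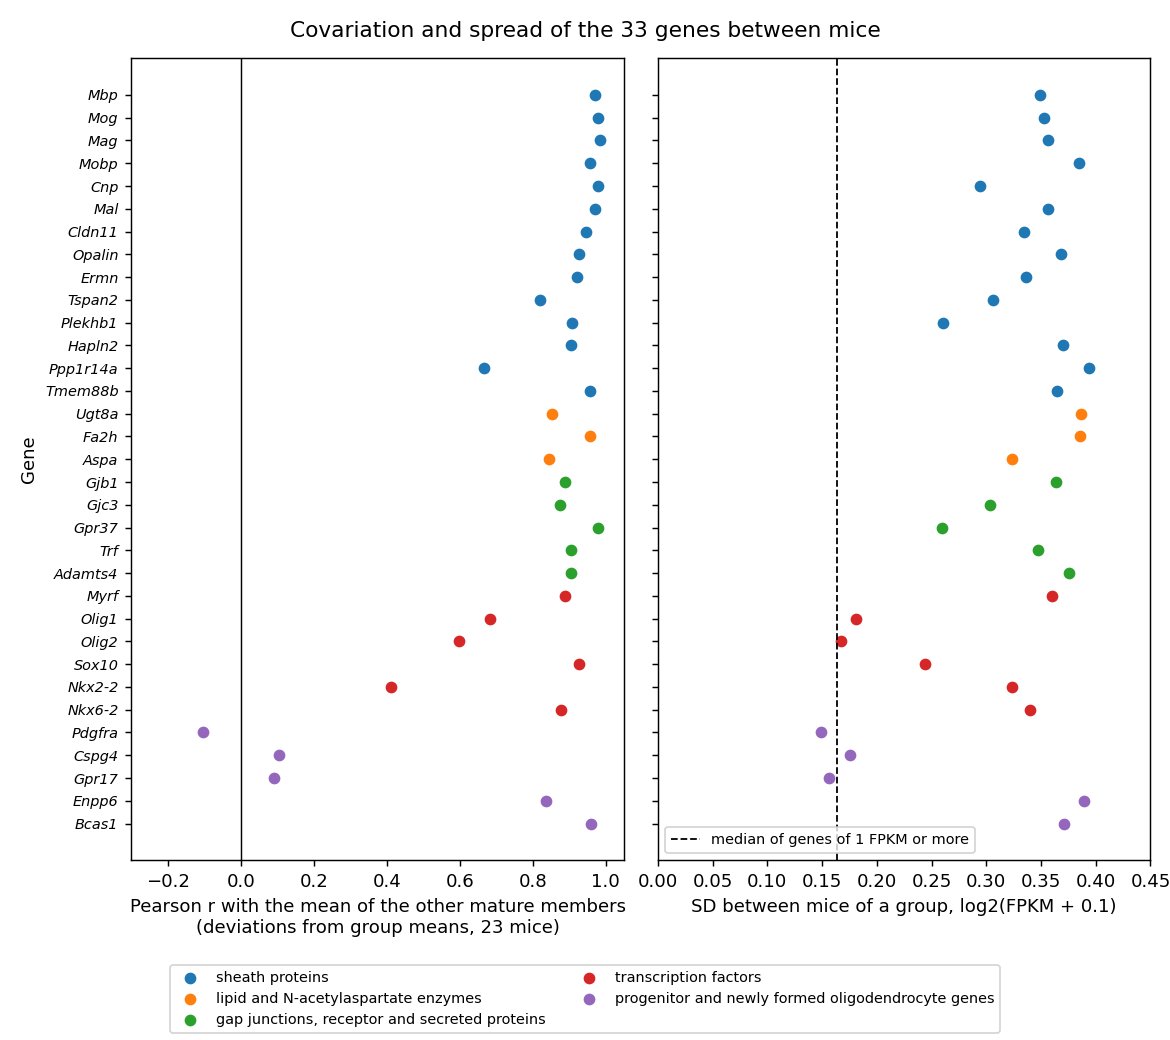
Left, Pearson r of each of the 33 genes (y axis) with the mean of the other mature genes over 23 mice, after removal of group means. Right, the SD between mice of a group on the log2(FPKM + 0.1) scale, with the median of 12904 genes as a dashed line. Colors mark the roles. Pdgfra, Cspg4 and Gpr17 lie at an r between -0.10 and 0.11 and close to the dashed line, and most other genes lie above an r of 0.8 and to the right of it.

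**Figure D4:**
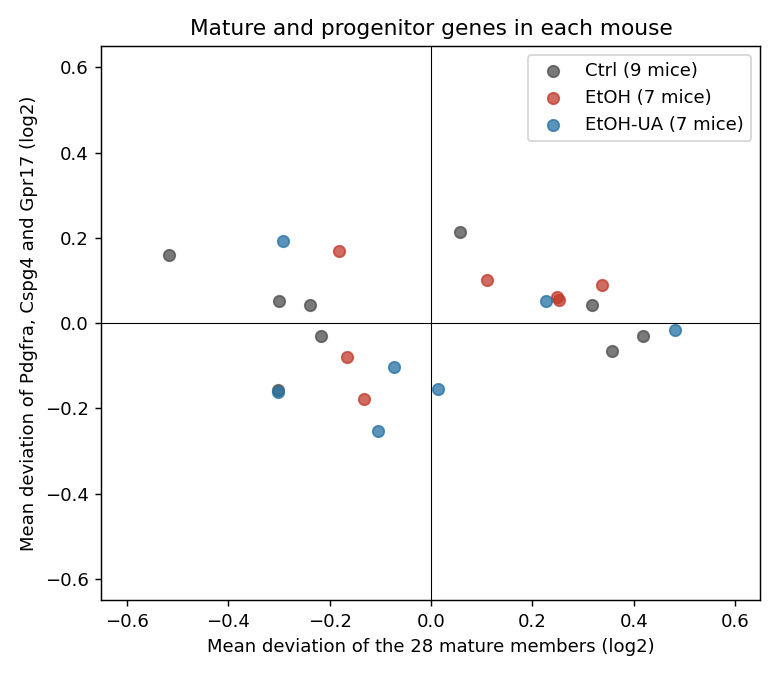
Mean deviation, in log2 units from the mean over all mice, of the 28 mature genes (x axis) and of Pdgfra, Cspg4 and Gpr17 (y axis) in each mouse, colored by group. The mature genes spread from -0.52 to 0.48 and the progenitor genes from -0.25 to 0.21, and the groups overlap on both axes.

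Because so many of these genes moved together, the sequence before their starts was searched for short motifs of the factors of the lineage. Promoters were taken from RefSeq (GRCm38.p6, the assembly also called mm10), which gave one for 24 of the 33 genes, and the 250 bases before the outermost start were read on both strands. The motifs were ACAAAG or ACAATG for SOX proteins, CAGATG or CAGCTG for the E-box of OLIG proteins, and CTGGCAC or CTGGTAC for MYRF. A SOX motif was present in 10 of the 24 promoters (41.7%) against 25.4% of 27025 promoters of all genes, an E-box in 11 (45.8%) against 25.3%, and a MYRF motif in 4 (16.7%), those of Cnp, Mag, Mog and Hapln2, against 5.88%. These shares describe a chosen list and short strings of letters, and were not tested. The promoters shown are those of the 3 mature genes that followed the others most closely and of Cspg4, a progenitor gene that did not, each with its motif letters in capitals and read 5′ to 3′ on the strand of the gene. Only promoters outside the span of their own gene were considered for this. The start used and the promoters shown were settled after a first search had been seen. Pdgfra, a progenitor gene that did not follow the mature genes either, is among the 11 genes with an E-box, so absence of these letters does not mark the progenitor genes.
Mag (chr7:30914923-30915172, minus strand): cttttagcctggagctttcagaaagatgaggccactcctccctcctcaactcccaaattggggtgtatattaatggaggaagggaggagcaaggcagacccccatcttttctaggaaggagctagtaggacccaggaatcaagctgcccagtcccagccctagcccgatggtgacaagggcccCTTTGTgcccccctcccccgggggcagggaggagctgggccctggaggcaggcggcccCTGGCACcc
Gpr37 (chr6:25689981-25690230, minus strand): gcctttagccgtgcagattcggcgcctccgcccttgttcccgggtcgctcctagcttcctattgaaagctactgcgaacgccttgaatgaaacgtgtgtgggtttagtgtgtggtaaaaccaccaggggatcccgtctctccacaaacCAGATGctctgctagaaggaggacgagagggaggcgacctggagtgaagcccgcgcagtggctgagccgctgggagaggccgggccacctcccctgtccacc
Mog (chr17:37023399-37023648, minus strand): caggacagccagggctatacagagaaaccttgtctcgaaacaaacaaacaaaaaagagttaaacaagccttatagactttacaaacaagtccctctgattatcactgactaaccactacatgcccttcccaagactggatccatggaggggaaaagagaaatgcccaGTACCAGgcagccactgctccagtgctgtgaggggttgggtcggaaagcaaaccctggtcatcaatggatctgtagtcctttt
Cspg4 (chr9:56864854-56865103, plus strand): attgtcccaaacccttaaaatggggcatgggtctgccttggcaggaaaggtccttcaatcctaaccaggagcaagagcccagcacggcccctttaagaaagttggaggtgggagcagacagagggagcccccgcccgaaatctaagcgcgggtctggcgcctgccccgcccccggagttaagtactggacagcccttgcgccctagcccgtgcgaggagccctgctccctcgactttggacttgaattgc
In the Mag promoter the capitals mark a SOX motif on the opposite strand, which begins 67 bases before the start, and a MYRF motif 9 bases before it. In that of Gpr37 they mark an E-box 102 bases before the start, and in that of Mog a MYRF motif on the opposite strand 83 bases before it. The Cspg4 window held none of these letters, and nothing about binding follows from either.

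Genes outside the list moved with it as well. Of 12871 other genes of at least 1 FPKM, 66 had an r of at least 0.8 with the mean of the mature genes. Of the 10 most alike, 9 were Ttyh2 (r = 0.97), Slc44a1 (0.95), Prr18 (0.95), Galnt6 (0.93), Tmem63a (0.93), Prr5l (0.93), Litaf (0.93), Tmbim1 (0.93) and Evi2a (0.92). Ttyh2, a membrane protein of the tweety family, ranged from 6.06 to 13.3 FPKM. From a list of 36 further mature oligodendrocyte genes, 35 could be compared and 19 had an r of at least 0.8, with a median of 0.82. From a list of 16 further progenitor genes, 14 could be compared and 0 reached this value, with a median of 0.055. In the other direction only Upp2, an enzyme of uridine breakdown, had an r of -0.8 or lower, at -0.84, with 5.91 to 10.1 FPKM. Upp2 was chosen after its value was seen.

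Markers of other cell types followed the mature genes less closely than the further mature genes did, with r between -0.27 and 0.37. The r of their mean with that of the mature genes was -0.27 for neurons, 0.11 for astrocytes, 0.064 for microglia, -0.034 for endothelium, 0.025 for pericytes and smooth muscle, -0.13 for meninges, -0.13 for choroid plexus, 0.37 for ependyma and 0.18 for Schwann cells. It was 0.27 for genes of the thalamus and septum, 0.32 for genes of hippocampal subfields and -0.18 for the summed FPKM of the mouse, which ran from 327896 to 404609. The part of these differences in the spread of the mature genes was not tested.

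Against this spread, none of the 33 genes passed the test between EtOH and Ctrl mice. Limma was fitted on log2(FPKM + 0.1) over the 15985 genes whose mean reached 0.1 FPKM, which all 33 genes did, and 0 genes had an adjusted p under 0.05 (Benjamini-Hochberg), or 0% of the genes tested. At an unadjusted p under 0.05 limma called 487 genes, or 3.05%, and 0 of the 33. The exact permutation test of the difference of means called 3.54% of genes at this level and also 0 of the 33, and 0 genes passed its adjustment in any of the 3 comparisons. The log2 fold change was above 0 for 30 of the 33 genes and below 0 for 3, with a median of 0.12 against -0.0030 over all genes tested. Since the mature genes move together, these 30 are not separate observations.

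Trf had the largest difference between EtOH and Ctrl mice. The Ctrl group averaged 83.7 ± 24.2 FPKM (SD, n = 9) and the EtOH group 100.9 ± 23.2 FPKM (SD, n = 7). Its log2 fold change was 0.29 (95% CI -0.048 to 0.62; limma p = 0.0899, adjusted p = 0.999; exact permutation p = 0.149). Hapln2 followed at 0.28 (95% CI -0.075 to 0.64) and Myrf at 0.23 (95% CI -0.12 to 0.58). The 3 genes below 0 were Nkx2-2 at -0.17 (95% CI -0.49 to 0.16), Cspg4 at -0.052 (95% CI -0.24 to 0.14) and Olig2 at -0.018 (95% CI -0.19 to 0.15). The sign of Cspg4 changed when 1 EtOH mouse was left out, and that of Olig2 when any of 3 mice was, with upper-quartile scaling and with a choroid plexus covariate. Mbp stood at 0.13 (95% CI -0.22 to 0.47), that is 917 ± 256 FPKM (SD, n = 9) against 980 ± 160 FPKM (SD, n = 7). By role, the median log2 fold change was 0.087 for the 14 sheath genes, 0.15 for the 3 enzymes, 0.18 for the 5 junction, receptor and secreted proteins, 0.038 for the 6 transcription factors and 0.038 for the 5 progenitor and newly formed genes.

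With UA on top of ethanol, no gene of the list passed the test against EtOH mice either. Limma called 0 genes at an adjusted p under 0.05 (0%) and 523 genes, or 3.27%, at an unadjusted p under 0.05, and 0 of the 33 were among them. The exact permutation test called 3.1% of genes and 0 of the 33. The EtOH mice are shared between this comparison and the one before it, so the opposite signs of the 2 medians are not independent. Here the log2 fold change was above 0 for 7 genes and below 0 for 26, with a median of -0.11 against 0.0033 over all genes tested. Pdgfra had the smallest p. The EtOH group averaged 11.9 ± 1.18 FPKM (SD, n = 7) and the EtOH-UA group 10.9 ± 1.25 FPKM (SD, n = 7), a log2 fold change of -0.13 (95% CI -0.29 to 0.035; limma p = 0.119, adjusted p = 0.900; exact permutation p = 0.139).

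The lowest values in EtOH-UA against EtOH mice were those of Enpp6 at -0.28 (95% CI -0.69 to 0.12), Adamts4 at -0.21 (95% CI -0.59 to 0.18) and Myrf at -0.20 (95% CI -0.57 to 0.17). The highest were Ppp1r14a at 0.10 (95% CI -0.30 to 0.51), Nkx2-2 at 0.10 (95% CI -0.24 to 0.45) and Olig1 at 0.053 (95% CI -0.14 to 0.24), and Ppp1r14a fell to -0.033 when 1 EtOH mouse was left out. Mbp had a log2 fold change of -0.11 (95% CI -0.48 to 0.25), and the EtOH-UA group averaged 924 ± 258 FPKM (SD, n = 7). The median was -0.057 for the sheath genes, -0.15 for the enzymes, -0.10 for the junction, receptor and secreted proteins, -0.055 for the transcription factors and -0.11 for the progenitor and newly formed genes.

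EtOH-UA and Ctrl mice gave the smallest median difference, 0.017 on the log2 scale, with 20 genes above 0 and 13 below (0.0024 over all genes tested). Limma called 0 genes at an adjusted p under 0.05 (0%), and at an unadjusted p under 0.05 it called 492 genes, or 3.08%, with 0 of the 33 among them. The exact permutation test called 2.98% of genes and 0 of the 33. Trf was again the farthest from 0, the EtOH-UA group averaging 102 ± 19.1 FPKM (SD, n = 7), at a log2 fold change of 0.32 (95% CI -0.014 to 0.65; limma p = 0.0594, adjusted p = 0.999; exact permutation p = 0.0918). It was followed by Hapln2 at 0.28 (95% CI -0.076 to 0.64) and Mobp at 0.14 (95% CI -0.23 to 0.51). Enpp6 was the lowest at -0.17 (95% CI -0.55 to 0.22), then Opalin at -0.11 (95% CI -0.47 to 0.24) and Cspg4 at -0.095 (95% CI -0.28 to 0.093). Mbp stood at 0.017 (95% CI -0.33 to 0.36), and its sign changed when any 1 of 7 of the 16 mice compared was left out, with quantile normalization and with a covariate of further mature genes. The groups overlapped in each of the 33 genes in all 3 comparisons. Over all genes tested, the share whose groups did not overlap was 0.00626% for EtOH against Ctrl, 0.025% for EtOH-UA against EtOH and 0.0125% for EtOH-UA against Ctrl, so 0 of 33 is close to the background.

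**Figure D5:**
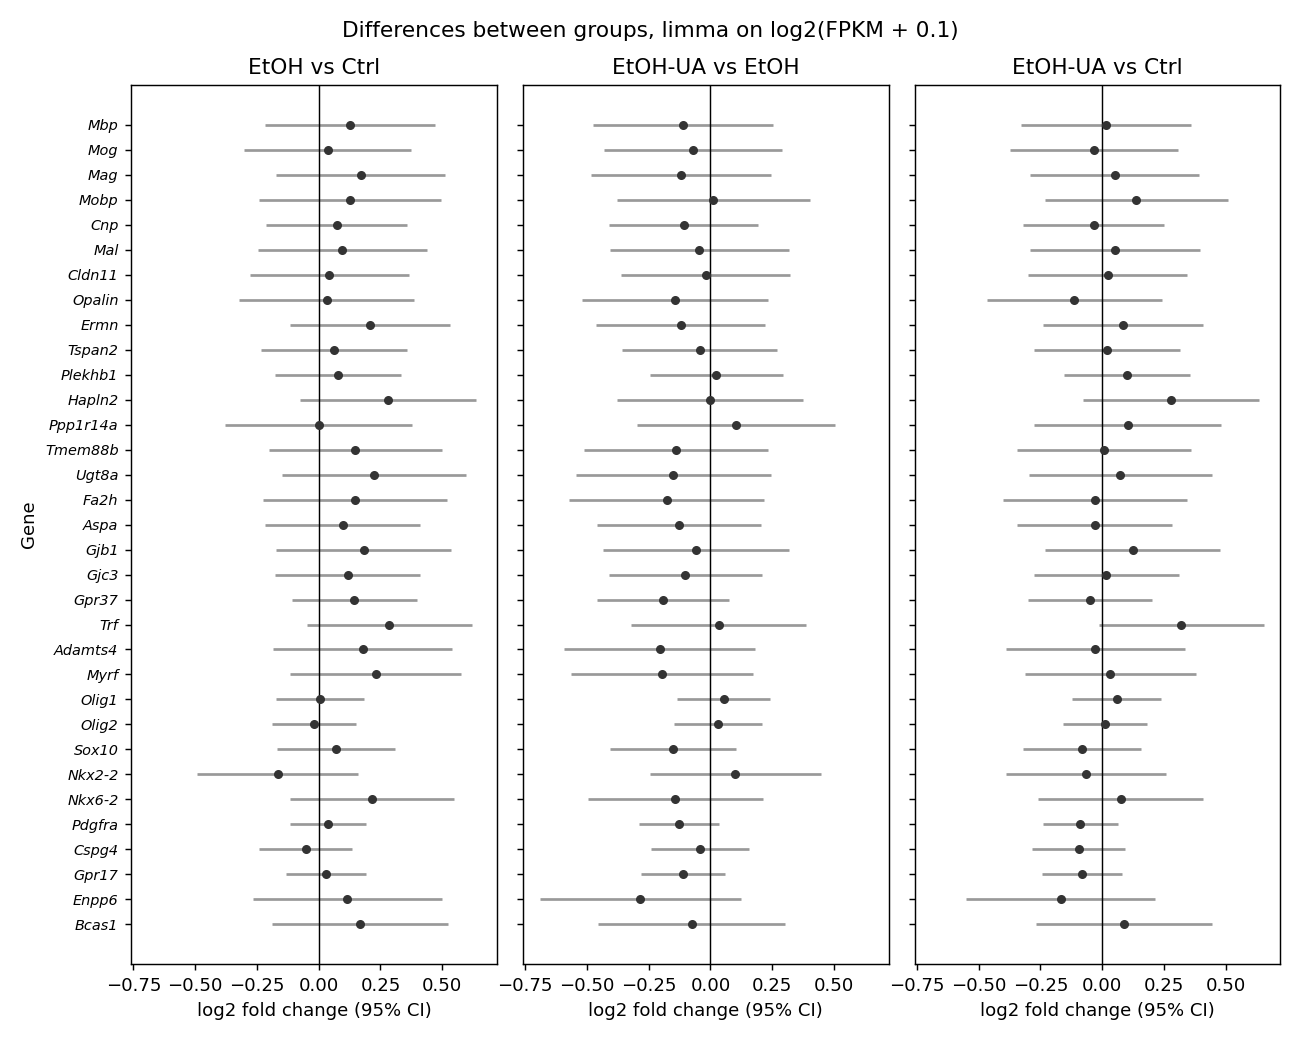
Log2 fold changes (x axis, on the log2(FPKM + 0.1) scale) with 95% confidence intervals from limma for the 33 genes (y axis, by role) in the 3 comparisons. All intervals include 0, and those of Pdgfra, Cspg4, Gpr17, Olig1 and Olig2 are narrower than those of the other genes.

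The width of these intervals shows what the mice could resolve. The median distance from a fold change to the limit of its interval was 0.33 on the log2 scale for both comparisons with Ctrl mice and 0.35 for EtOH-UA against EtOH mice. The median SE of the mature genes was 0.16 in EtOH against Ctrl mice, and that of Pdgfra, Cspg4 and Gpr17 was 0.078. Differences of the size of the medians above lie within these intervals, so they were not detectable with 7 to 9 mice per group, which does not show that the groups were alike.

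Since most of the spread was shared, the comparisons were repeated with the mean of the 36 further mature oligodendrocyte genes of each mouse as a covariate, an alternative chosen after the data had been seen. It asks which genes differ relative to the rest of the mature program rather than in level. The median SE of the mature genes fell to 0.067, 0.070 and 0.066 in the 3 comparisons. In EtOH against Ctrl mice 2 of the 33 genes then had an unadjusted limma p under 0.05 (2.69% of all genes), Trf at 0.18 and Hapln2 at 0.17. In EtOH-UA against EtOH mice 2 did (3.33% of all genes), Gpr37 at -0.15 (95% CI -0.23 to -0.065; limma, adjusted p = 0.917) and Sox10 at -0.11. In EtOH-UA against Ctrl mice 5 did (3.08% of all genes), which were Trf at 0.27 (95% CI 0.14 to 0.41; limma, adjusted p = 0.999), Hapln2 at 0.23, Opalin at -0.16, Sox10 at -0.12 and Gpr37 at -0.087. None passed the adjustment over all genes, with smallest adjusted limma p-values of 0.9999, 0.917 and 0.999 in the 3 comparisons.

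The ratio of Trf to Mag was also taken in each mouse. It covered 1.67 to 2.07 in the Ctrl group (median 1.95), 1.91 to 2.45 in the EtOH group (median 2.02) and 1.94 to 3.19 in the EtOH-UA group (median 2.25), and the groups overlapped. The ratio of Gpr37 to Mag covered 0.404 to 0.552 in the Ctrl group (median 0.455), 0.401 to 0.493 in the EtOH group (median 0.465) and 0.380 to 0.476 in the EtOH-UA group (median 0.4503). Gpr37 varied less between mice of a group than Mag (SD 0.26 against 0.36 on the log2 scale). The ratio was highest in the Ctrl mouse with the lowest Mag, 28.3 FPKM, and lowest in the EtOH-UA mouse with the highest Mag, 65.3 FPKM. It thus also reflects the level of Mag in the mouse. Choroid plexus RNA varied between the mice at the same time, and its group medians differed too. None of its 10 markers was at 0 throughout. Their summed level ranged from 9.26 to 2995 FPKM in Ctrl mice (median 62.5) and from 73.0 to 5804 FPKM in EtOH mice (median 1291). In EtOH-UA mice it ranged from 17.6 to 7860 FPKM (median 1876). By log2 fold change all 10 were higher in EtOH and in EtOH-UA than in Ctrl mice, as Trf was. All 10 were lower in EtOH-UA than in EtOH mice. In EtOH against Ctrl mice 2 of the 10 had an unadjusted limma p under 0.05, and none passed the adjustment in any comparison. The EtOH-UA mouse with the ratio of 3.19 had the highest Ttr of all mice, 7705 FPKM. Over the 23 mice, Trf relative to the mature genes correlated with the log2 of Ttr at r = 0.42 (rho = 0.26, and r = 0.50 without 2 mice). Trf itself correlated with it at r = 0.067 (rho = 0.081, and r = -0.078 without 2 mice). With the mean of the choroid plexus markers as a covariate, the log2 fold change of Trf against Ctrl mice was 0.26 for the EtOH and 0.30 for the EtOH-UA group. This covariate was applied to the level of Trf and not to Trf relative to the mature genes. The part of choroid plexus RNA in either was not tested.

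Of 10 ependymal markers, 9 had an unadjusted limma p under 0.05 between EtOH and Ctrl mice (3.05% of all genes). All 9 had the higher level in EtOH mice, and none passed the adjustment. They mark 1 cell type, so these 9 are not separate observations. Between EtOH-UA and Ctrl mice all 10 were higher in EtOH-UA mice, and 2 had an unadjusted limma p under 0.05 (3.08% of all genes). The summed level of the 10 markers was 9.65 to 25.6 FPKM in the Ctrl group (median 15.1). It was 21.1 to 37.8 FPKM in the EtOH group (median 25.4) and 11.3 to 37.01 FPKM in the EtOH-UA group (median 24.9). Their part in the values of the myelin genes was not tested.

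Further genes of the lineage were counted in the same fit, in which 3.05%, 3.27% and 3.08% of all genes had an unadjusted p under 0.05 in the 3 comparisons. Of the 36 further mature genes, 0 had an unadjusted limma p under 0.05 in EtOH against Ctrl mice, 1 in EtOH-UA against EtOH mice, Efnb3 at -0.16, and 2 in EtOH-UA against Ctrl mice, the lipid carrier Apod at 0.37 and the ephrin Efnb3 at -0.13. Their median log2 fold changes were 0.062, -0.022 and 0.0043. Of the 16 further progenitor genes, Lims2 had an unadjusted limma p under 0.05 in EtOH against Ctrl mice, at -0.20, and in EtOH-UA against EtOH mice, at 0.21. Xylt1, which starts the sugar chains of proteoglycans, did so in EtOH-UA against EtOH mice, at -0.34 (limma, adjusted p = 0.900). None of these passed the adjustment over all genes.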

How the data were processed

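Hippocampal RNA of 23 mice (9 Ctrl, 7 EtOH, 7 EtOH-UA) was sequenced with paired-end reads of 100 bases. The authors cleaned the reads with SOAPnuke, aligned them to mm10 with Bowtie2 and quantified them with RSEM. The processing notes of the submitters name Bowtie2 2.2.5, RSEM 1.2.8 and HISAT2 2.1.0. The methods name poly(A)+ RNA and the sample annotations total RNA. The annotation is not given in the sources used here. The deposited values are FPKM to 2 decimals. DESeq2, which the authors name for their comparisons, needs counts and was not used here. Columns were assigned to groups by name, and no 2 columns were identical.

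Values were transformed as log2(FPKM + 0.1), and fold changes on this scale understate the change of low genes. A single limma model (version 3.58.1, R 4.3.3) held the 3 groups, with an intensity trend and no covariate, for genes whose mean reached 0.1 FPKM. Adjusted p-values follow Benjamini and Hochberg and cover every gene tested. Two-sided exact permutation tests were run in Python 3.11.15 with numpy 2.4.6. The fit was tested on simulated data. Correlations used deviations from group means. Depth was estimated from the steps between low FPKM values and covers counting error only.

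The members, roles and lists were chosen with earlier results of these data known, so no list was tested. For each comparison the named genes were members with an unadjusted p under 0.05, the 3 largest log2 fold changes in each direction, and Mbp. Of the 10 other genes most like the mature members, 1 is not reported here. The alternatives were a pseudocount of 1 or 0.01, other filters on low values, only the mice compared, upper-quartile and quantile scaling, robust eBayes, the permutation test and each mouse left out. Covariates of further mature oligodendrocyte genes and of choroid plexus genes were added after the data had been seen.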

Additional observations from a re-analysis of the deposited data

Results flagged for a closer look

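Within the groups, 99 sets of values (33 genes in 3 groups) were searched for a lowest or highest mouse that stood far from the rest, of which chance alone flags about 1 in 20, or 4.95. There were 2. Enpp6 in the EtOH group had its lowest mouse at 1.10 FPKM, at a gap of 0.578 of the range of the group on the log2 scale, against a limit of 0.568 for 7 mice. Cspg4 in the EtOH-UA group had its lowest mouse at 1.89 FPKM, at a gap of 0.590 of the range.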

How the results depend on the processing

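Under 11 other settings and with each of the 23 mice left out, 714 values of named genes were recomputed. In 448 of them the log2 fold change differed from the reported one, and 16 of these changed sign. None passed an adjusted p of 0.05, and over all limma settings the smallest adjusted p among the 33 genes was 0.574. In EtOH against Ctrl mice the log2 fold change of Olig2 was 0.000125 with upper-quartile scaling and 0.050 with the choroid plexus covariate, and from -0.077 to 0.027 with a mouse left out, and that of Cspg4 ran from -0.087 to 0.0045. In EtOH-UA against EtOH mice that of Ppp1r14a ran from -0.033 to 0.21 with a mouse left out. In EtOH-UA against Ctrl mice that of Mbp was -0.046 with quantile normalization and -0.034 with the covariate of mature genes, and from -0.092 to 0.089 with a mouse left out. Members with an unadjusted p under 0.05 numbered 2, 2 and 5 in the 3 comparisons with the covariate of mature genes (2.69%, 3.33% and 3.08% of all genes), and 0 to 2 in each with a mouse left out (1.92% to 7.76% of all genes). Over all genes, 0 to 1 had an adjusted p under 0.05 in each comparison with a mouse left out. The median of the 33 genes ran from 0.059 to 0.18, from -0.18 to -0.052 and from -0.073 to 0.082 with a mouse left out. The cause of these changes was not tested. No paired analysis was possible because the columns carry no replicate numbers. Depth limits the low genes: counting alone gives an SD of about 0.20 on the log2 scale for Nkx2-2 and 0.13 for Gjb1 and Enpp6, against 0.033 for Mag.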
